A study of Capra hircus with 3 samples.

Results

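The 6 genes described here, HMGCS1, FDPS, FDFT1, SQLE, LSS and DHCR7, encode enzymes spaced along the cholesterol synthesis pathway. They were taken by gene symbol, with earlier results of these data known, and each matched 1 of the 27271 genes in the count matrices. Their identifiers are ENSCHIG00000015096, ENSCHIG00000020170, ENSCHIG00000024342, ENSCHIG00000025130, ENSCHIG00000013212 and ENSCHIG00000014907, in the order of the names above.

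Cells make cholesterol from acetyl-CoA by way of mevalonate, isoprenoid diphosphates, squalene and a series of sterol intermediates. Most genes of the pathway are known targets of SREBP-2, the product of SREBF2, which is held in the endoplasmic reticulum by INSIG proteins when sterols are plentiful. The liver is a major site of cholesterol synthesis and also the organ that turns cholesterol into bile acids.

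The livers came from 15 female goats, 3 to 4 years old, and single cells were sequenced from the 3′ end of their transcripts. NASH-T goats belonged to the steatohepatitis tolerance group and NASH goats had non-alcoholic steatohepatitis, and both were fed the HRDS diet. Con goats were healthy and were fed the LRDS diet. The 5 livers of a group were pooled before sequencing, so each group had 1 library and no replicate, and group, pool and handling cannot be told apart. No test between groups could be run. All intervals are 95% intervals of counting error, and say nothing about the spread between goats.

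Filtering left 8914 cells in NASH-T, 8389 in NASH and 7200 in Con, at median depths of 2127.5, 2472 and 2392.5 UMIs in NASH-T, NASH and Con. Doublet calls had removed 4.90%, 3.92% and 3.79% of barcodes in NASH-T, NASH and Con. The libraries shared 20 to 23 cell barcodes per pair. There were 3112 hepatocyte-like cells in NASH-T, 4060 in NASH and 2862 in Con, at median depths of 4036.5, 3865 and 4200 UMIs in NASH-T, NASH and Con. Levels are in CPM, that is, the UMI count of a gene divided by all UMIs of the same class and library, on the usual CPM scale. UMI counts do not correct for how well each transcript is captured, so levels are compared between libraries and not between enzymes.

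In hepatocyte-like cells, each of the 6 enzymes was highest in NASH, intermediate in NASH-T and lowest in Con, and no counting intervals of the CPM values overlapped between libraries. Their summed level was 651 CPM (638 to 664) in NASH-T, 1115 CPM (1101 to 1130) in NASH and 308 CPM (299 to 318) in Con. The sum in NASH-T was 0.584 times that in NASH (0.570 to 0.598) and 2.11 times that in Con (2.04 to 2.19). NASH stood at 3.62 times Con (3.50 to 3.74). Relative to Con, the median gene of hepatocyte-like cells stood at a log2 ratio of -0.12 in NASH and -0.10 in NASH-T, so scaling to that gene widens both ratios to Con.

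**Figure D1:**
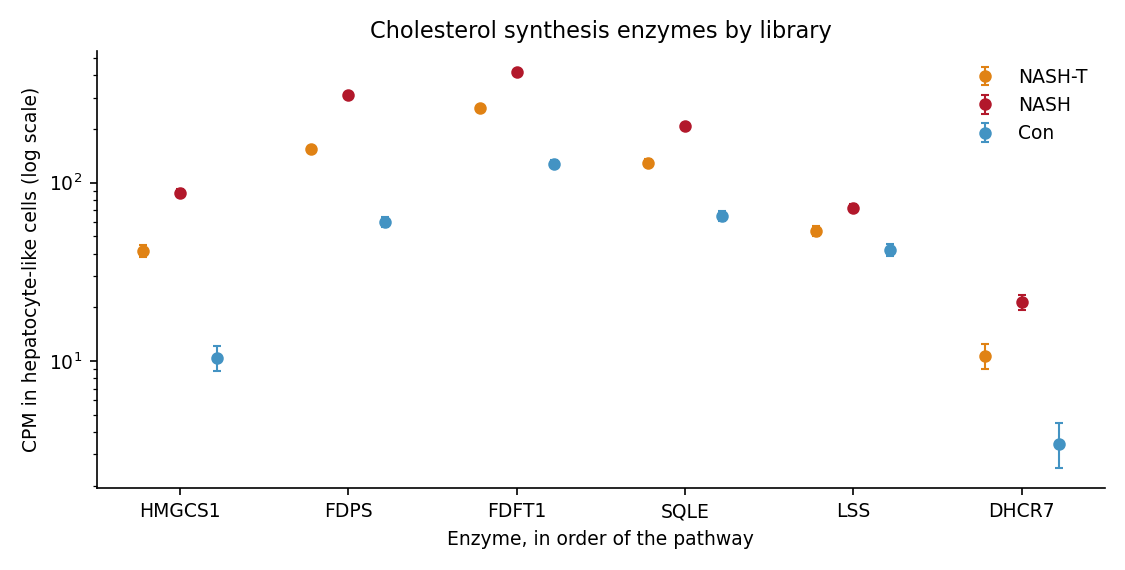
Level of each enzyme (CPM, log scale) in hepatocyte-like cells, with enzymes in pathway order. Points are single libraries (NASH-T, NASH and Con from left to right) and bars are 95% counting intervals; NASH is the highest and Con the lowest for every enzyme.

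HMGCS1 encodes the cytosolic HMG-CoA synthase, which acts early in the pathway, before mevalonate is made. It stood at 41.4 CPM (621 UMIs) in NASH-T, 87.5 CPM (1732 UMIs) in NASH and 10.3 CPM (146 UMIs) in Con. Of the 6 enzymes it had the largest NASH to Con ratio, 8.45 (7.13 to 10.1), which is rank 31 from the top of 13267 genes. That interval overlapped the one of DHCR7 (4.64 to 8.63). For HMGCS1, NASH-T stood at 0.473 times NASH (0.431 to 0.519) and 4.00 times Con (3.33 to 4.82).

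FDPS, the farnesyl diphosphate synthase, makes the isoprenoid from which sterols, ubiquinone, dolichol and protein prenyl groups are built. Its level was 155 CPM in NASH-T, 311 CPM in NASH and 60.0 CPM in Con. NASH-T was at 0.498 times NASH (0.475 to 0.522) and 2.58 times Con (2.38 to 2.79), and NASH at 5.17 times Con (4.81 to 5.56). The NASH-T level lay apart from both.

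FDFT1, the squalene synthase, takes the step that commits farnesyl diphosphate to sterols, and SQLE, the squalene epoxidase, adds the oxygen to squalene and is a known control point. FDFT1 stood at 262 CPM in NASH-T, 416 CPM in NASH and 128 CPM in Con. SQLE stood at 129 CPM in NASH-T, 208 CPM in NASH and 64.7 CPM in Con. These neighbours in the pathway had ratios with overlapping intervals in all 3 comparisons. From NASH-T to NASH the ratio was 0.630 (0.606 to 0.654) for FDFT1 and 0.619 (0.586 to 0.653) for SQLE. From NASH-T to Con it was 2.05 (1.94 to 2.17) for FDFT1 and 1.99 (1.84 to 2.16) for SQLE. From NASH to Con it was 3.25 (3.09 to 3.42) for FDFT1 and 3.22 (3.00 to 3.46) for SQLE.

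LSS, the lanosterol synthase, closes the ring system of the sterols. It differed least of the 6 enzymes, at 53.6 CPM in NASH-T, 71.7 CPM in NASH and 41.9 CPM in Con. NASH-T was at 0.747 times NASH (0.685 to 0.815) and 1.28 times Con (1.15 to 1.42), and NASH at 1.71 times Con (1.55 to 1.89). DHCR7 encodes the reductase that turns 7-dehydrocholesterol into cholesterol. It had the fewest UMIs, with 10.6 CPM (159 UMIs) in NASH-T, 21.3 CPM (422 UMIs) in NASH and 3.40 CPM (48 UMIs) in Con. NASH-T was at 0.497 times NASH (0.412 to 0.598) and 3.11 times Con (2.24 to 4.40), and NASH at 6.26 times Con (4.64 to 8.63).

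A ratio of at least 1.5 in either direction was counted as higher or lower. From NASH-T to NASH, 5 of the 6 enzymes were lower, all but LSS, with a median ratio of 0.558, where 7.1% of all genes were lower, 10.4% were higher and the median gene was at 1.00. From NASH-T to Con, 5 of 6 were higher, again all but LSS, with a median ratio of 2.31, where 6.59% of all genes were higher, 11% were lower and the median gene was at 0.932. From NASH to Con, 6 of 6 were higher, with a median ratio of 4.21, where 6.94% of all genes were higher, 14.3% were lower and the median gene was at 0.918. When the hepatocyte clusters shared by the libraries were weighted equally, LSS no longer passed from NASH to Con, at 1.36, and FDFT1 at 0.712 and SQLE at 0.682 were no longer counted as lower from NASH-T to NASH. LSS was counted as lower from NASH-T to NASH after cells were thinned to 1000 UMIs, at 0.654, and as higher from NASH-T to Con, at 2.69, when the level in T cell-like cells of the same library was taken off.

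The other steps of the pathway were read from a list of 15 further genes, of which 14 were measured. With the 6 enzymes they make 20 genes. From NASH-T to NASH, 10 of the 20 were lower and none higher, with a median ratio of 0.666. From NASH-T to Con, 12 were higher and none lower (median 1.72), and from NASH to Con 16 were higher and none lower (median 2.68). Of the 14 other steps alone, 5 were lower from NASH-T to NASH (median 0.707), 7 were higher from NASH-T to Con (median 1.49) and 10 were higher from NASH to Con (median 2.30). Over all genes 7.1% were lower from NASH-T to NASH, 6.59% higher from NASH-T to Con and 6.94% higher from NASH to Con.

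HSD17B7, a sterol ketoreductase, had a NASH to Con ratio of 3.77, between those of FDPS and FDFT1, and IDI1, the isopentenyl diphosphate isomerase, stood at 3.02. CYP51A1, the lanosterol demethylase, stood at 2.97 and MVD, the mevalonate diphosphate decarboxylase, at 2.85.

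The pathway did not differ evenly. ACAT2, the thiolase at its start, had a NASH to Con ratio of 1.15, and the mevalonate kinases MVK and PMVK had ratios of 1.22 and 0.801. LBR, which can serve the same reductase step as TM7SF2, had a ratio of 1.18, against 2.51 for TM7SF2.

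**Figure D2:**
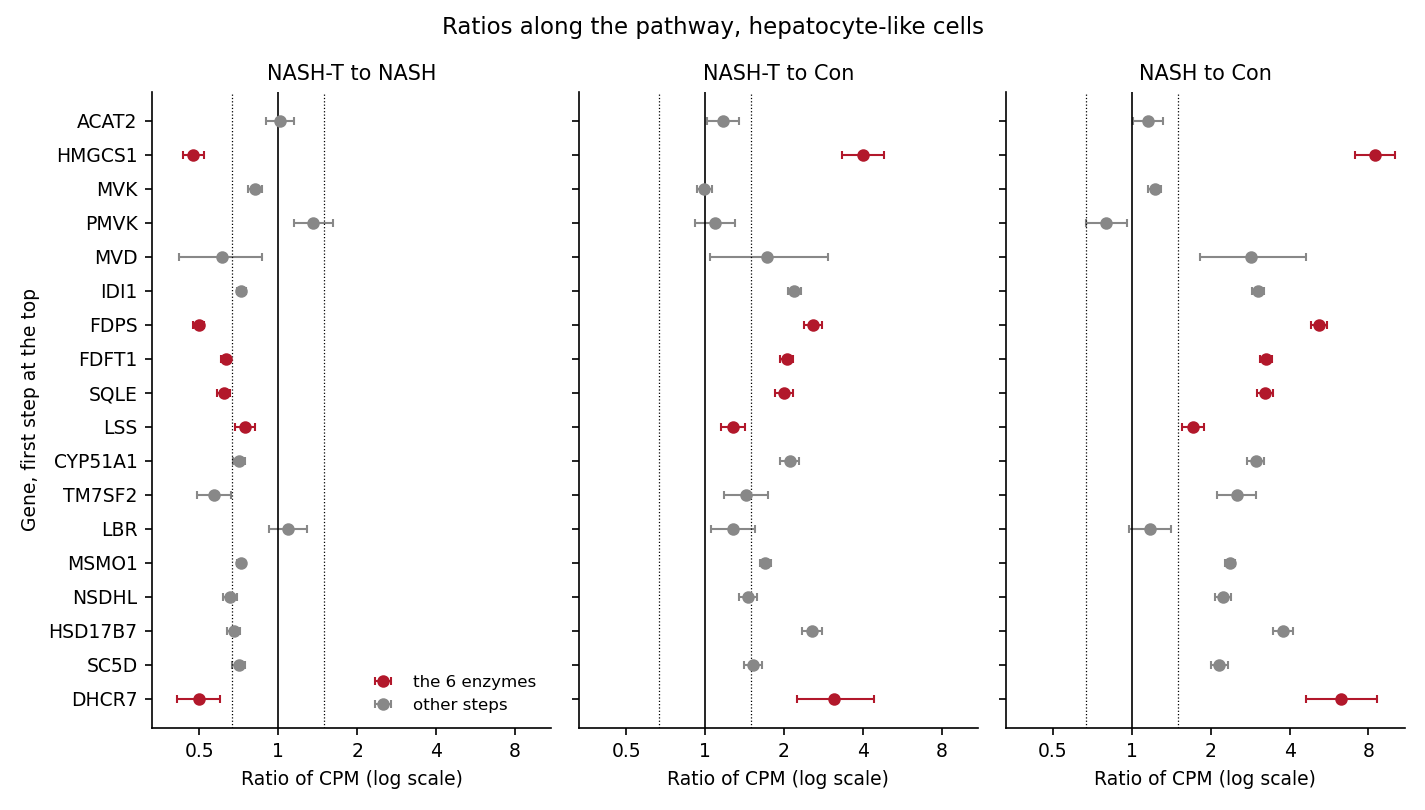
Ratio in hepatocyte-like cells (log axis) for the 6 enzymes and other steps of the pathway, one panel per comparison (NASH-T to NASH, NASH-T to Con, NASH to Con). Points are ratios with 95% counting intervals and the 6 enzymes are set off by colour; ACAT2, MVK, PMVK and LBR lie near 1 in the NASH to Con panel while HMGCS1 reaches 8.45. Dotted lines mark 1.5-fold in either direction.

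Genes that sense sterols or take them up gave counts of another size. Of 13 measured, 1 was lower from NASH-T to NASH (median 0.963), 1 was higher from NASH-T to Con (median 0.966) and 3 were higher from NASH to Con (median 1.01). Over all genes the shares were 7.1% lower, 6.59% higher and 6.94% higher in these comparisons, so a count of 1 of 13 was near that of all genes. INSIG1, a known SREBP-2 target as well as its retention factor, stood at 91.4 CPM in NASH-T, 188 CPM in NASH and 52.0 CPM in Con, with a NASH to Con ratio of 3.62. STARD4, a sterol carrier, was also counted as higher from NASH to Con, at 1.51. SREBF2 itself stood at 181 CPM in NASH-T, 180 CPM in NASH and 162 CPM in Con, with a NASH to Con ratio of 1.12. Branches that leave the pathway at or beyond farnesyl diphosphate had medians of 1.11 from NASH-T to NASH, 0.921 from NASH-T to Con and 0.833 from NASH to Con over 8 measured genes. PDSS1, which builds the ubiquinone tail, was the 1 gene counted as higher from NASH-T to NASH, at 1.71, and the 1 gene counted as lower from NASH to Con, at 0.650. GGPS1, the geranylgeranyl diphosphate synthase, was the 1 gene counted as higher from NASH-T to Con, at 1.55. A count of 1 of 8 lay near the shares over all genes, which were 10.4% higher from NASH-T to NASH, 6.59% higher from NASH-T to Con and 14.3% lower from NASH to Con.

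Hepatocytes near the portal vein and near the central vein differ in metabolism, and the enzymes were therefore read in 3 zones of equal cell number per library. HAL, a periportal histidine enzyme, stood in Con at 80.2, 19.7 and 3.23 CPM in the periportal, middle and pericentral zones. LGR5, a pericentral Wnt target, stood at 50.8, 206 and 481 CPM. Both are among the markers that set the zones, so their values describe the zones and do not test them. The summed level of the 6 enzymes over these zones was 639, 649 and 667 CPM in NASH-T, 1020, 1117 and 1226 CPM in NASH, and 333, 311 and 277 CPM in Con. The periportal to pericentral ratio of the sum was 0.958 (0.912 to 1.01) in NASH-T, 0.832 (0.806 to 0.860) in NASH and 1.203 (1.12 to 1.30) in Con. The sum was thus higher in the pericentral zone of NASH and in the periportal zone of Con, while the NASH-T interval included 1.

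The zone ratio of NASH depended on which clusters were counted. Clusters 4 and 5, led by CYP7A1 and FASN, held 1574 and 1247 of the NASH cells, against 94 and 36 cells in NASH-T and 17 and 4 in Con. In NASH, 899 of the 1354 pericentral cells lay in cluster 4 and 813 of the 1353 periportal cells in cluster 5. Without these clusters, and with zone limits set anew, the NASH ratio was 1.05, on the other side of 1.

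SQLE had the widest gap between libraries of the enzymes with over 100 UMIs in each library. Over the periportal, middle and pericentral zones it stood at 126, 129 and 133 CPM in NASH-T, 189, 207 and 233 CPM in NASH, and 84.5, 55.9 and 53.3 CPM in Con. Its periportal to pericentral ratio was 0.950 in NASH-T, 0.811 (0.752 to 0.875) in NASH and 1.58 (1.34 to 1.87) in Con. In Con the periportal zone stood apart from the other two, and its NASH to Con ratio was 2.24, 3.71 and 4.37 over the zones in that order. FDPS was nearly level in Con, at 58.1, 64.1 and 57.5 CPM. Its zone ratio was 0.924 in NASH-T, 0.909 in NASH and 1.01 in Con. HMGCS1 had zone ratios of 0.877 in NASH-T, 0.793 in NASH and 1.195 in Con, and FDFT1 of 0.993 in NASH-T, 0.785 in NASH and 1.095 in Con. In Con the interval included 1 for both, at 0.785 to 1.83 for HMGCS1 and 0.971 to 1.23 for FDFT1. LSS had zone ratios of 0.978 in NASH-T, 0.892 in NASH and 1.24 in Con. DHCR7 had ratios of 1.00 in NASH-T and 0.894 in NASH, and one of 1.83 in Con whose interval of 0.878 to 4.01 included 1.

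**Figure D3:**
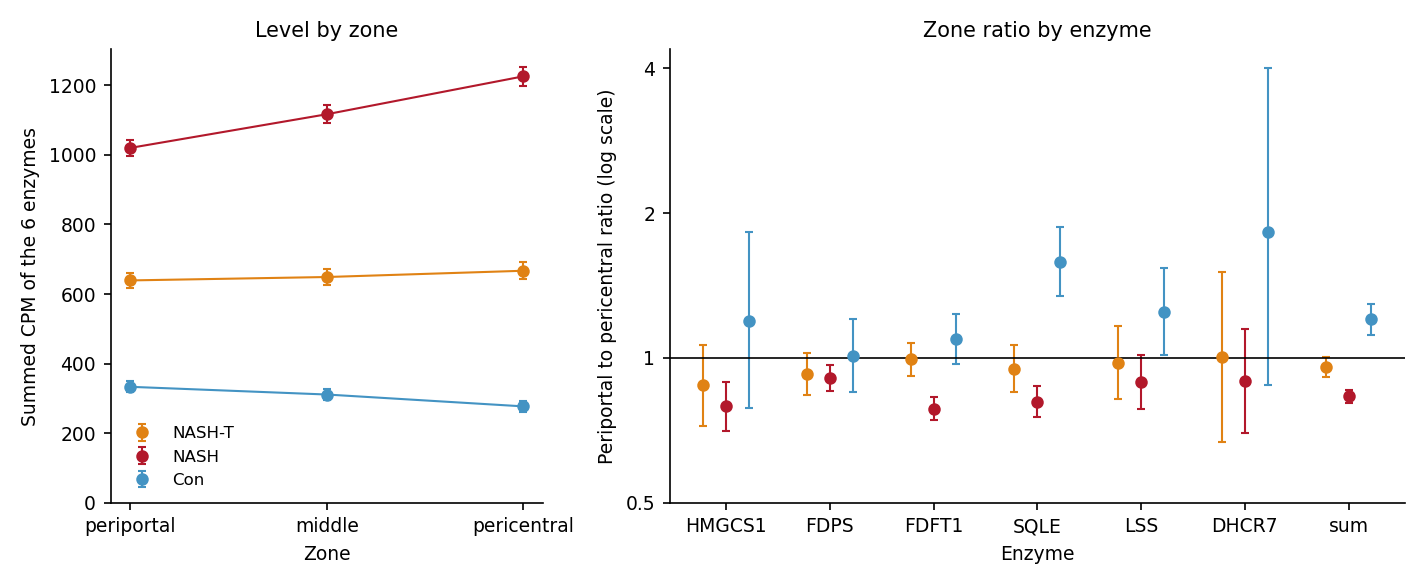
Left, summed CPM of the 6 enzymes in the periportal, middle and pericentral zones of hepatocyte-like cells; right, periportal to pericentral ratio (log scale) of each enzyme and of the sum. Points are single libraries (NASH-T, NASH and Con, by colour) with 95% counting intervals; the sum ends at 1226 CPM in the pericentral zone of NASH, and SQLE lies at a ratio of 0.811 in NASH and 1.58 in Con.

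The order of the libraries was the same in every zone. The NASH-T to NASH ratio of the sum was 0.627, 0.581 and 0.544 over the periportal, middle and pericentral zones, the NASH-T to Con ratio 1.92, 2.08 and 2.41, and the NASH to Con ratio 3.06, 3.59 and 4.42. The 18 values of an enzyme in a zone are the same enzymes read again in each zone, and not separate calls. Of these values, 13 were lower from NASH-T to NASH, 14 higher from NASH-T to Con and 18 higher from NASH to Con. Over all genes of the undivided hepatocyte-like cells, the shares were 7.1%, 6.59% and 6.94% in that order. Shares over all genes within a zone were not taken.

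Within the hepatocyte clusters that all libraries held, the order was kept for the sum. In cluster 0, led by BHMT and HAL, it was 650 CPM in NASH-T, 1004 CPM in NASH and 329 CPM in Con. In cluster 3, led by LGR5 and FMO1, it was 655 CPM in NASH-T, 1026 CPM in NASH and 278 CPM in Con. In cluster 6, whose cells were shallow, with a median of 1050 UMIs in NASH-T, 838.5 in NASH and 1025.5 in Con, it was 624 CPM in NASH-T, 996 CPM in NASH and 360 CPM in Con. Without clusters 4 and 5, which NASH cells nearly fill, the NASH to Con ratio of the sum was 3.28, below its counting interval as reported. This exclusion was chosen after seeing the data. The part that cluster make-up has in the difference between libraries was not tested. Within NASH, cluster 4 had 1.25 times the sum of the other hepatocyte clusters (1.22 to 1.28). HMGCS1 had 111 CPM there, against 76.6 CPM in the others, a ratio of 1.44 (1.31 to 1.59). SREBF2 stood at 180 CPM there, against 181 CPM in the others, and the interval of its ratio included 1. Cluster 5, led by FASN, had 0.906 times the sum of the others (0.882 to 0.931).

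At full depth, 81.1% of hepatocyte-like cells in NASH-T, 92.5% in NASH and 60.1% in Con held a UMI of at least 1 of the 6 enzymes. Of cells thinned to 1000 UMIs, 43.8% in NASH-T, 65.9% in NASH and 23.9% in Con did so, and the order of the libraries was the same. At least 2 of the enzymes were seen in 10.3% of thinned NASH-T cells, 24.95% of NASH cells and 3.09% of Con cells. The mean per thinned cell was 0.640 UMIs in NASH-T, 1.16 in NASH and 0.299 in Con. Variance over mean was 1.23 in NASH-T, 1.14 in NASH and 1.24 in Con, where counting alone gives 1. T cell-like cells held a UMI of the 6 in 13.0% of thinned cells in NASH-T, 17.9% in NASH and 13.2% in Con, below the hepatocyte-like share in each library. Cells under 1000 UMIs were left out of the thinned shares, which cover 1270 of 1977, 743 of 1430 and 977 of 1525 T cell-like cells in NASH-T, NASH and Con. For hepatocyte-like cells they cover 2914 of 3112, 3855 of 4060 and 2685 of 2862. The median depth of all T cell-like cells was 1199, 1021 and 1173 UMIs in NASH-T, NASH and Con.

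Single enzymes showed the same order. FDFT1, the most often detected, had a UMI in 20.8% of thinned hepatocyte-like cells in NASH-T, 33.9% in NASH and 10.9% in Con. FDPS had one in 14.1% in NASH-T, 28.2% in NASH and 5.62% in Con, and SQLE in 11.5% in NASH-T, 18.8% in NASH and 5.88% in Con. HMGCS1 was seen in 3.81% in NASH-T, 7.26% in NASH and 1.01% in Con. LSS, with the narrowest spread, was seen in 4.36% in NASH-T, 6.54% in NASH and 3.54% in Con, and DHCR7, the rarest, in 1.06% in NASH-T, 2.31% in NASH and 0.261% in Con. At full depth the shares were 14.9% in NASH-T, 26.4% in NASH and 4.26% in Con for HMGCS1, and 57.4% in NASH-T, 71.9% in NASH and 36.2% in Con for FDFT1. Of the 15 pairs of enzymes, 11 in NASH-T, 14 in NASH and 10 in Con were seen in the same thinned cell more often than the product of their shares, with a median ratio to that product of 1.17 in NASH-T, 1.096 in NASH and 1.07 in Con. Pairs share enzymes and cells, and counts were low, with 95 joint detections in Con over all pairs. Pairs of other genes were not read, so whether joint detection is particular to these enzymes was not tested.

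**Figure D4:**
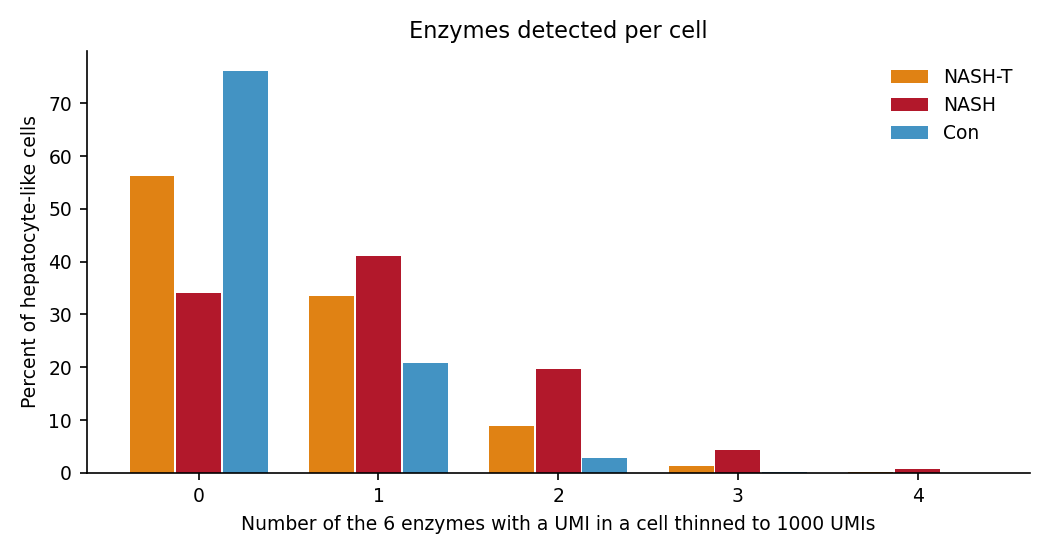
Percent of hepatocyte-like cells by the number of the 6 enzymes with a UMI, with bars for NASH-T, NASH and Con from left to right. Only cells of at least 1000 UMIs are shown, each thinned to 1000 UMIs. Most Con cells have none and 65.9% of NASH cells have at least 1.

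Over the other named cells together, the sum of the enzymes was lower than in hepatocyte-like cells in each library. It was 122 CPM in NASH-T, 164 CPM in NASH and 121 CPM in Con, so hepatocyte-like cells stood at 5.34 times the rest in NASH-T, 6.81 times in NASH and 2.54 times in Con. By class, the sum in NASH-T, NASH and Con was 195, 262 and 214 CPM in B cell-like cells, 175, 210 and 168 CPM in NK-like cells and 159, 220 and 173 CPM in T cell-like cells. In the same libraries, NASH-T, NASH and Con, it was 109, 183 and 93.7 CPM in endothelial-like cells, 88.5, 100 and 90.9 CPM in macrophage-like cells and 87.8, 168 and 75.6 CPM in stellate- or fibroblast-like cells. Of these 6 classes, the B cell-, NK- and T cell-like ones had the higher sums in each library, though in NASH their intervals overlapped those of endothelial-like and stellate- or fibroblast-like cells.

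In NASH and in NASH-T, hepatocyte-like cells had the highest level of all 6 enzymes, though the intervals overlapped those of the next class for LSS in both libraries and for DHCR7 in NASH-T. In Con, hepatocyte-like cells had the highest level of 5 enzymes, and for each of these the interval overlapped that of the next class. FDPS stood there at 60.0 CPM in hepatocyte-like cells and 58.3 CPM in B cell-like cells, and SQLE at 64.7 CPM in hepatocyte-like cells and 50.8 CPM in T cell-like cells. HMGCS1 was ordered otherwise. In Con it stood at 19.4 CPM in B cell-like, 13.9 CPM in T cell-like, 12.3 CPM in NK-like and 10.3 CPM in hepatocyte-like cells, and these neighbours had overlapping intervals. The Con hepatocyte level of HMGCS1 was therefore not above that of lymphocytes. LSS was close between classes too, at 38.7, 36.4 and 34.5 CPM in NK-like cells of NASH-T, NASH and Con, but it stood at 6.02, 4.31 and 6.46 CPM in macrophage-like cells of NASH-T, NASH and Con.

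SQLE in T cell-like cells stood at 52.0 CPM in NASH-T, 54.9 CPM in NASH and 50.8 CPM in Con, with a NASH to Con ratio of 1.08 (0.802 to 1.45). HMGCS1 there was at 11.8 CPM in NASH-T, 8.54 CPM in NASH and 13.9 CPM in Con, with a NASH to Con ratio of 0.616 (0.298 to 1.22). FDPS was at 39.1 CPM in NASH-T, 65.9 CPM in NASH and 33.4 CPM in Con, with a NASH to Con ratio of 1.97 (1.44 to 2.73). Thus SQLE and HMGCS1 had intervals that included 1, and FDPS did not. FDFT1 was at 35.3 CPM in NASH-T, 66.5 CPM in NASH and 44.2 CPM in Con. FDPS and FDFT1 were the 2 of 5 measured enzymes counted as lower from NASH-T to NASH, where 6.85% of genes were lower. They were also the 2 counted as higher from NASH to Con, where 7.48% were higher, and HMGCS1 was counted as lower, where 7.77% were lower. LSS was counted as lower from NASH-T to Con, at 0.633 (0.421 to 0.948), where 6.96% of genes were lower.

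In endothelial-like cells FDPS stood at 23.1 CPM in NASH-T, 55.3 CPM in NASH and 23.4 CPM in Con. FDFT1 stood there at 44.2 CPM in NASH-T, 78.2 CPM in NASH and 45.5 CPM in Con. For both, NASH was the highest, and NASH-T and Con were close, with NASH-T to Con ratios of 0.987 and 0.973. Of the measured enzymes, 3 of 5 were lower from NASH-T to NASH (7.57% of genes), 1 of 4 was higher from NASH-T to Con (11.4%) and 3 of 3 were higher from NASH to Con (9.41%). Among these, HMGCS1 from NASH-T to NASH and SQLE in both comparisons to Con had intervals that included 1. The limit of 20 UMIs over both libraries set how many enzymes were measured. From NASH to Con it left out HMGCS1 (13 and 1 UMIs), LSS (7 and 5) and DHCR7 (1 and 1). FDPS and SQLE had 17 and 11 UMIs in Con, and passed only with the higher counts of the other library. The counts to Con thus lean on enzymes that were high outside Con. In stellate- or fibroblast-like cells FDPS was at 13.1 CPM in NASH-T, 54.0 CPM in NASH and 15.8 CPM in Con, and FDFT1 at 48.5 CPM in NASH-T, 73.6 CPM in NASH and 35.2 CPM in Con. There 3 of 3 were lower from NASH-T to NASH (13.2% of genes) and 3 of 3 higher from NASH to Con (15.1%). From NASH-T to Con, FDPS (10 and 9 UMIs) and SQLE (8 and 8 UMIs) fell below the limit of 20 UMIs. They were thus measured only in comparisons with NASH, where they were highest. FDFT1 was the 1 enzyme measured from NASH-T to Con, and its interval of 0.779 to 2.51 included 1. The intervals of SQLE also included 1 in both counted comparisons, as did that of FDFT1 from NASH-T to NASH. In macrophage-like cells 0 of 5 measured enzymes passed 1.5-fold in any comparison, and FDPS stood at 32.3 CPM in NASH-T, 42.5 CPM in NASH and 36.8 CPM in Con. Of all genes there, 7.5% were higher and 8.7% lower from NASH-T to NASH, 6.5% higher and 9.06% lower from NASH-T to Con, and 7.04% higher and 7.95% lower from NASH to Con. DHCR7 was too rare outside hepatocytes to compare, with 7, 4 and 4 UMIs in T cell-like cells of NASH-T, NASH and Con.

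**Figure D5:**
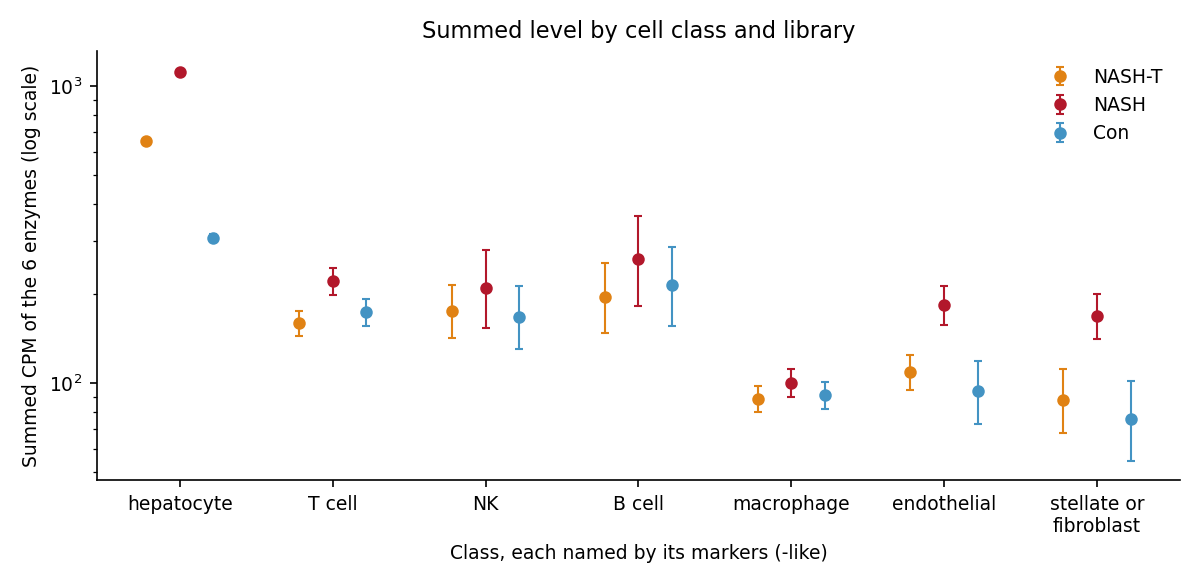
Summed CPM of the 6 enzymes (log scale) by cell class for NASH-T, NASH and Con from left to right, with 95% counting intervals. Hepatocyte-like cells stand at 651, 1115 and 308 CPM in NASH-T, NASH and Con, and none of the other 6 classes plotted passes the 262 CPM of NASH B cell-like cells.

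Hepatocyte transcripts were also found in the other classes. The 14 hepatocyte markers stood in T cell-like cells at a median of 15.1%, 14.1% and 15.4% of their hepatocyte-like level in NASH-T, NASH and Con, and the 6 enzymes at a median of 26.8%, 18.6% and 64.5%. In endothelial-like cells of NASH-T, NASH and Con the markers stood at 11.1%, 11.9% and 13.3% and the enzymes at 15.0%, 14.5% and 29.5%. In stellate- or fibroblast-like cells of NASH-T, NASH and Con the markers stood at 10.2%, 15.0% and 12.1% and the enzymes at 11.6%, 11.4% and 24.0%. In macrophage-like cells of NASH-T, NASH and Con the markers stood at 6.92%, 7.46% and 8.34% and the enzymes at 11.2%, 6.81% and 29.0%. The enzymes stood above the markers in Con in all 4 classes, and below them in NASH in macrophage-like and stellate- or fibroblast-like cells. The part that free hepatocyte RNA has in the enzyme levels of these classes was not tested.

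Over 7 classes in 3 libraries, 21 points in all, the profiles most like the mean of the enzymes were those of NSDHL (Pearson r 0.955), SC5D (0.944), MSMO1 (0.940) and CYP51A1 (0.923), all from later sterol steps. PCCA and GBE1 (both 0.914), MGST1 (0.907), FGB (0.904), IDI1 (0.901) and IVD (0.889) completed the 10 closest outside the 6 enzymes. Among all 7823 ranked genes IVD was at rank 14. Of the enzymes, which set the mean, FDPS, HMGCS1, FDFT1 and SQLE held ranks 5, 6, 7 and 10. DHCR7 and LSS held only ranks 54 and 57. Of the 10 genes outside the enzymes, 5 were thus from the other steps of the pathway. PCCA, a subunit of propionyl-CoA carboxylase, had a NASH to Con ratio of 1.02 in hepatocyte-like cells. Between pairs of the 6 enzymes r ran from 0.519 for LSS with DHCR7 to 0.854 for FDPS with FDFT1. The points share libraries and depth, and r is a description only.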

How the data were processed

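Livers of 3 groups of goats (NASH-T, NASH and Con) were measured, with 5 livers pooled into 1 library per group. The deposited values were UMI counts per gene and barcode. Per the submitters' processing notes, Cell Ranger 7.0.0 was used, and the genome build was not given in the sources used here. Every deposited barcode already held at least 500 UMIs.

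Limits on cells were a minimum of 200 genes and 500 UMIs and a maximum of 20% of UMIs from mitochondrially encoded genes, and doublets were removed per library with Scrublet in scanpy 1.11.5. This left 27005297, 29059323 and 23752171 UMIs in NASH-T, NASH and Con, which set the precision. Clusters (Leiden, resolution 0.8, 2000 variable genes, 30 components) were made without 34 genes of cholesterol synthesis and sterol sensing, and were named from marker genes. A cluster that mixed hepatocyte markers with those of another class was set apart. Zones were 3 equal parts of the hepatocyte-like cells of each library, ordered by periportal minus pericentral marker level.

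UMIs were summed per library and class and divided by the class total (CPM). Ratios were NASH-T to NASH, NASH-T to Con and NASH to Con, with exact 95% intervals (conditional binomial for ratios, Poisson for CPM, binomial for shares). The ratio intervals were tested on simulated Poisson counts, for which they are exact, so this says nothing about spread beyond counting error. With 1 library per group no test was possible. Shares of cells were also taken after thinning each cell of at least 1000 UMIs to that number, and cells below it were left out. Higher and lower mean a 1.5-fold ratio or more in that direction, among genes with at least 20 UMIs over both libraries. Named genes were the 6 enzymes, up to 4 with the largest and 2 with the smallest ratio of each other list, the regulators SREBF2 and INSIG1, and the 10 genes most like the enzymes; further genes of the synthesis pathway are named to complete its steps, and ABCG1 and LIPA to account for a count of 3. The enzymes and lists were chosen with earlier results of these data known. Alternatives changed the doublet step, cell limits, clustering, depth, weighting, scaling and zone markers. Some genes of the lists count towards their totals but are not reported singly here. EBP, SREBF1, COQ2, FNTA and RABGGTB were not analysed here.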

Additional observations from a re-analysis of the deposited data

Results flagged for a closer look

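The zone pattern pointed in opposite directions in 2 libraries. The periportal to pericentral ratio of SQLE was 0.811 in NASH and 1.58 in Con, and that of the sum of the 6 enzymes was 0.832 in NASH and 1.203 in Con. This difference was not tested, and the NASH ratio of the sum was 1.05 without clusters 4 and 5.

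LSS differed in direction between classes, with a NASH-T to Con ratio of 1.28 in hepatocyte-like cells and 0.633 in T cell-like cells, a difference that was not tested.

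Cells outside the comparisons also held the enzymes. In the cluster that mixed hepatocyte with endothelial markers (38, 175 and 85 cells in NASH-T, NASH and Con), the sum was 619, 926 and 252 CPM, a ratio of 2.46 from NASH-T to Con and 3.68 from NASH to Con. In cholangiocyte-like cells it was 212, 322 and 152 CPM in NASH-T, NASH and Con, from 30, 37 and 39 UMIs. The NASH to Con ratio there was 2.12 (1.31 to 3.41). In dividing cells the sum was 107, 294 and 128 CPM in NASH-T, NASH and Con, from 12, 37 and 27 UMIs. The NASH to Con ratio there was 2.29 (1.36 to 3.91). In mast cell- or basophil-like cells the sum was 225, 520 and 62.7 CPM in NASH-T, NASH and Con, from 10, 32 and 2 UMIs. The NASH to Con ratio there was 8.29 (2.11 to 71.4). From NASH-T to Con the intervals of the cholangiocyte-like, dividing and mast cell- or basophil-like cells included 1. The classes not flagged had NASH to Con intervals that included 1. Plasma cell-like cells were at 1.22 (0.699 to 2.07) and gamma-delta T cell-like cells at 1.67 (0.503 to 6.35). A cluster left without a name was at 1.38 (0.412 to 7.23).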

How the results depend on the processing

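Of 102 values recomputed under the alternatives, 75 stayed within their counting interval, 26 fell outside it and 1 changed direction, the NASH zone ratio (0.832), at 1.05 without clusters 4 and 5. Leaving out these clusters, leaving out cluster 6 and taking off the T cell-like level were chosen after seeing the data. These are the sums, medians, zone ratios and class ratios, and those that left their interval are given below; the causes were not tested. Of 196 values of single enzymes, 157 stayed within their interval, 39 fell outside it and 0 changed direction. Among the 102, the medians with no minimum of UMIs could not move, since that setting alters only the shares over all genes. A change of direction was counted only where the interval as reported excluded 1, which leaves out the NASH-T zone ratio.

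Thinning gave a NASH to Con median of 4.65 and sum of 3.88, a NASH-T to NASH sum of 0.552 and a NASH-T zone ratio of 0.868. Equal weight for shared clusters gave NASH-T to NASH 0.637 and NASH-T to Con 1.99 for the sum, and NASH to Con 3.69 for the median and 3.13 for the sum. Without clusters 4 and 5, NASH-T to NASH was 0.628 for the median and 0.644 for the sum (FDFT1 0.699 and SQLE 0.751, no longer counted as lower), and the NASH to Con sum was 3.28. Taking off the T cell-like level gave sums of 0.550, 3.64 and 6.62 for NASH-T to NASH, NASH-T to Con and NASH to Con; no median is given because HMGCS1 in Con was left with no positive level. It also gave the widest moves of single enzymes, from NASH-T to Con at 4.33 for FDPS, 5.55 for SQLE, 2.69 for LSS and 5.89 for DHCR7, and from NASH to Con at 9.18 for FDPS, 11.1 for SQLE, 3.79 for LSS and 14.0 for DHCR7. In Con the enzymes stood in T cell-like cells at a median of 64.5% of their hepatocyte-like level, against 15.4% for hepatocyte markers. This setting thus takes off more than the median marker share, though single markers ran from 2.31% to 89.4%. Dividing by the median gene gave 2.48 and 2.27 for the median and sum from NASH-T to Con, and 4.59 and 3.94 from NASH to Con. The Con zone ratio was 1.32 and 1.11 with the odd and even zone markers, and the NASH one 0.863 with the odd. The hepatocyte-like to other ratio was 4.55, 4.67 and 2.30 in NASH-T, NASH and Con with doublets kept, and 4.90 in NASH-T and 2.30 in Con as a mean over cells. With no minimum of UMIs, 16.2% of genes were lower from NASH-T to NASH, 15.8% higher from NASH-T to Con and 14.3% higher from NASH to Con, against 7.1%, 6.59% and 6.94%.

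No paired analysis was possible because each group had 1 pooled library. Depth limits DHCR7 in Con (48 UMIs in hepatocyte-like cells) and most enzymes in the small classes.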

Other observations

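The 8 genes of fatty acid synthesis, read in the same hepatocyte-like cells, had median ratios further from 1 than the cholesterol enzymes in each comparison. This did not hold for each gene. The smallest NASH to Con ratios were 2.40 for ME1 and 2.68 for ELOVL6, below the enzymes' median of 4.21. Of the 8, 6 were lower from NASH-T to NASH (median ratio 0.439), 8 higher from NASH-T to Con (2.94) and 8 higher from NASH to Con (6.17), where 7.1% of all genes were lower in the first comparison and 6.59% and 6.94% higher in the others. SCD, the stearoyl-CoA desaturase, stood at 17.9 CPM in NASH-T, 49.9 CPM in NASH and 2.27 CPM in Con. FASN, the fatty acid synthase, stood at 83.4 CPM in NASH-T, 425 CPM in NASH and 29.8 CPM in Con. ME1, the malic enzyme, was ordered otherwise, at 27.8 CPM in NASH-T, 20.4 CPM in NASH and 8.51 CPM in Con.

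Genes of cholesterol ester storage, efflux and disposal had median ratios of 1.01 from NASH-T to NASH, 0.896 from NASH-T to Con and 1.21 from NASH to Con over 12 measured genes. CYP7A1, the rate-limiting enzyme of bile acid synthesis, was lower from NASH-T to NASH at 0.420, as were ABCG1, a sterol exporter, at 0.506 and LIPA, the lysosomal acid lipase, at 0.630. From NASH to Con CYP7A1 was higher at 2.01 and CYP27A1, a sterol hydroxylase, lower at 0.517. Over all genes 7.1% were lower from NASH-T to NASH, and 6.94% were higher and 14.3% lower from NASH to Con. CYP7A1 leads cluster 4, which NASH cells nearly fill.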
